A study of Mus musculus with 32 samples.

Results

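The comparison described here followed light-treated primary mouse astrocytes over time, from 4 h to 24 h, with no inflammatory stimulus added. Photobiomodulation (PBM) is treatment with light. The 4 libraries of PBM at 24 h (PBM 24 h) were set against the 4 libraries of PBM at 4 h (PBM 4 h), 8 of the 32 libraries of the series, over all genes that averaged at least 1 FPKM (fragments per kilobase of transcript, scaled to library size) in either of these groups. Of 21899 genes in the table, 12631 met that rule. The members at its edge averaged 1.0 FPKM just inside and 0.9975 FPKM just outside, and of the 9268 genes outside it 8261 were listed at 0 in all 8 libraries. Untreated cultures at 24 h (Control 24 h) and at 4 h (Control 4 h), with 4 libraries each, gave the same interval without light. The labels give no mouse strain, age, wavelength or light dose, and do not say that the 4 replicates of a group were separate cultures. The p-values therefore measured the spread between libraries of a group, estimated over all 32 libraries of the series, and that spread may be technical.

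Astrocytes are the glial cells that feed and buffer neurons and that answer injury with changes in shape, secreted factors and inflammatory genes. Immediate early genes such as Fos and Egr1 are switched on within minutes of a stimulus, mostly through ERK kinase signalling and serum response factor (SRF), and are then shut off by feedback phosphatases. Interferon-stimulated genes form the antiviral programme: interferon receptors activate STAT factors, which bind an element shared by many of their promoters. Mitochondrial cytochrome c oxidase is widely discussed as a light absorber in photobiomodulation.

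The smallest steps between FPKM values put the depth of the 8 PBM libraries at 134552 to 143705 fragments, which is low for bulk RNA. Across genes, libraries correlated at 0.767 to 0.785 within a PBM group (12 pairs) and at 0.755 to 0.771 between the groups (16 pairs), on the log2(FPKM + 1) scale. Astrocyte markers were detected unevenly. Gfap, the astrocyte intermediate filament, lay at 29 to 49.8 FPKM in PBM 24 h and 22.3 to 47.4 FPKM in PBM 4 h, and Glul, glutamine synthetase, at 70.9 to 92.7 FPKM in PBM 24 h and 55.3 to 72.3 FPKM in PBM 4 h. S100b was listed at 0 in 6 of the 8 libraries and Ppia, a gene that every cell uses, in 3, so a value of 0 is given as listed at 0 and not as absence. In bulk RNA, fewer cells of a type and less RNA per cell cannot be told apart.

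In all, 150 genes changed between PBM 24 h and PBM 4 h, 1.19% of those tested: 70 were higher at 24 h (0.554%) and 80 were lower (0.633%). The test was limma on log2(FPKM + 1), fitted over all 32 libraries, with Benjamini-Hochberg adjustment over all tested genes and a call at an adjusted p under 0.05. Each log2 fold change is the difference of the fitted means on that scale, given with its standard error, and it understates the change of low genes. Of the called genes, 51 were at least 2-fold higher and 53 at least 2-fold lower, while the median log2 change over all tested genes was -0.0033. The 2 groups did not overlap for 736 genes (5.83% of those tested), and 142 of the 150 called genes were among these.

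**Figure D1:**
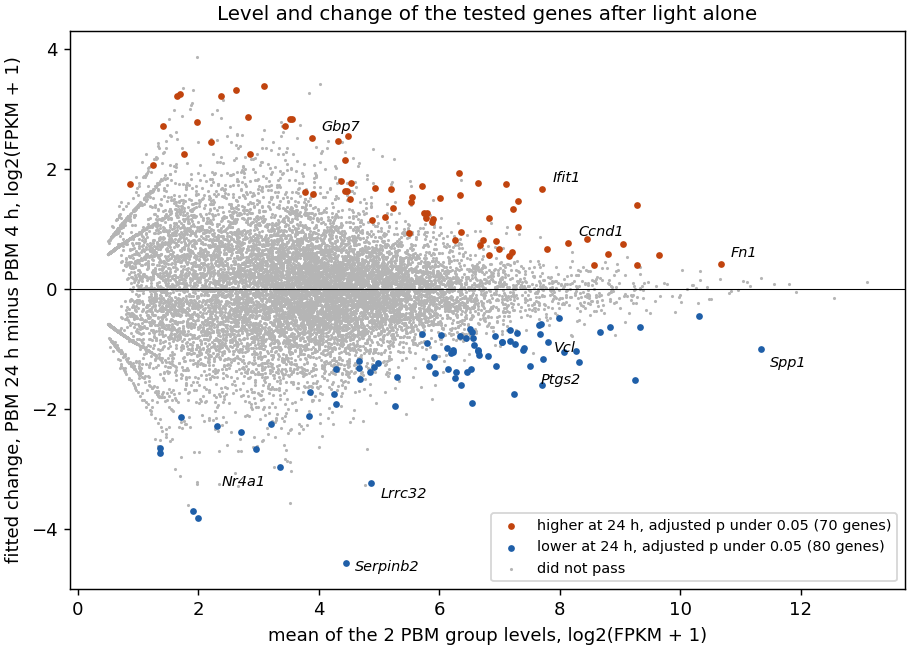
Each point is 1 of the 12631 tested genes, with its mean level over PBM 24 h and PBM 4 h on the x axis and the fitted change, PBM 24 h minus PBM 4 h, on the y axis, both in log2(FPKM + 1). The 70 genes that rose (orange) and the 80 that fell (blue) include abundant genes (Fn1, Spp1) and less abundant genes with larger changes than these (Gbp7, Serpinb2).

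Interferon-stimulated genes were the largest listed group among the genes that rose. Of 36 listed genes of the type I interferon response, 18 rose and none fell, against 0.554% of all tested genes that rose. This list and the others were chosen with earlier results of these data known, so such shares describe the lists and test nothing. All 36 had a fitted change above 0, with a median of 1.39 on the log2 scale. Summed over the list, PBM 24 h libraries held 4241 to 6096 FPKM and PBM 4 h libraries 2284 to 3045 FPKM. In a fit on the 16 Control and PBM libraries 11 passed, and in one on the 8 PBM libraries 10 did.

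Ifit1 encodes a protein that binds viral RNA without the host cap (ENSMUSG00000034459, GRCm38, chromosome 19, 34640871 to 34650009, plus strand). It had 311, 338, 397 and 415 FPKM in PBM 24 h and 127, 74.4, 109 and 162 FPKM in PBM 4 h. The groups stood well apart, with a log2 change of 1.66 ± 0.18 (limma adjusted p = 3.96e-07). Ifit3, its partner in the same gene cluster, reached 743, 988, 1121 and 1157 FPKM in PBM 24 h, against 467, 278, 415 and 366 FPKM in PBM 4 h, at 1.39 ± 0.18 on the log2 scale (limma adjusted p = 1.5e-05). Its groups did not overlap either. The Ifit genes resemble each other in sequence, and the handling of reads that fit several of them is not stated in the sources used here.

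Stat2, a signal transducer of interferon receptors, had 79.5, 78, 110.0 and 103 FPKM in PBM 24 h and 35.1, 16.1, 32.1 and 30.1 FPKM in PBM 4 h, which gave a log2 change of 1.71 ± 0.24 (adjusted p = 3.03e-05). Oasl2, of the family that senses double-stranded RNA, had 270.3, 252, 228 and 289.9 FPKM in PBM 24 h and 119.8, 87.7, 93.3 and 76.1 FPKM in PBM 4 h, a log2 change of 1.47 ± 0.21 (adjusted p = 5.36e-05). Both genes kept their groups apart. Parp14, an ADP-ribosyltransferase induced by interferon, had 31.1, 43.2, 37.5 and 36.7 FPKM in PBM 24 h and 8.92, 11.4, 7.01 and 13.1 FPKM in PBM 4 h (log2 fold change 1.80 ± 0.24).

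The interferon-inducible GTPases, which attack the vacuoles of intracellular pathogens, included the largest changes of the list. Gbp7 had 23.7, 41.5, 24.9 and 49.8 FPKM in PBM 24 h and 3.93, 5.83, 3.97 and 6.58 FPKM in PBM 4 h, without overlap, with a log2 change of 2.52 ± 0.33 (limma adjusted p = 1.31e-05). Iigp1 had 93.9, 149.8, 163 and 204 FPKM in PBM 24 h and 57.7, 24.1, 27.9 and 52.3 FPKM in PBM 4 h (log2 fold change 1.93 ± 0.30, limma adjusted p = 0.000185). Gbp5 had 4.58, 11.9, 7.19 and 11.4 FPKM in PBM 24 h and 2.31 FPKM in 1 of the PBM 4 h libraries, and it was listed at 0 in the other 3. Its log2 change of 2.78 ± 0.63 (limma adjusted p = 0.0143) rests on few fragments. Gbp10, a related GTPase outside the list, was likewise above 0 in only 1 of the 4 PBM 4 h libraries, at 4.92 FPKM, against 12, 18.6, 26.2 and 7.5 FPKM in PBM 24 h (log2 fold change 3.32 ± 0.75). Called members of the list that are named here after their values were seen were Ifit2, Ifit3b, Oas2, Ifih1, Gbp2, Igtp, Ifi44, Ifi47 and Rtp4, with log2 fold changes of 0.95 (Ifi44) to 1.68 (Ifi47). Of these, Oas2 and Ifi47 lost their call in 13 of 20 alternative analyses each (adjusted p up to 0.194 for Oas2). The GTPase genes also resemble each other, so reads may have been divided wrongly among them.

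Genes outside that list rose with it. Rnf213, an interferon-induced ubiquitin ligase, had 161, 150.3, 204 and 200.2 FPKM in PBM 24 h and 53.5, 28.8, 60.9 and 73 FPKM in PBM 4 h, a log2 change of 1.77 ± 0.25 (limma adjusted p = 3.2e-05). Sp110, a nuclear body protein, had 29.1, 26.6, 15.2 and 36.3 FPKM in PBM 24 h, against 3.83, 0, 3.87 and 7.24 FPKM in PBM 4 h (2.84 ± 0.54). The groups of both genes stayed apart. Slfn9 of the Schlafen family rose by 2.72 ± 0.58, and Ifi206, of the family of DNA sensors, was listed at 0 in all 4 PBM 4 h libraries and had 4.59, 17, 9.62 and 6.87 FPKM in PBM 24 h (adjusted p = 0.00263). While 0.554% of all tested genes rose, 3 of 23 antigen presentation genes did and none fell (median 0.32). These were H2-T22, a class I molecule, at 0.80 ± 0.18, Tapbp, which loads peptides onto class I, at 0.81 ± 0.18, and Calr, an endoplasmic reticulum chaperone, at 0.58 ± 0.09. In the fit on 16 libraries 1 of the 23 passed, in that on 8 none did, and without PBM 24 h replicate 1 there were 5.

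Microglia also express interferon genes, and their markers were measured beside these. Of 21 tested microglia and macrophage markers none passed the limma test (1 at an unadjusted p under 0.05, and 0 in limma-voom on approximate fragments). The fitted change was above 0 in 16 of the 21, with a median of 0.39. Their summed level was 1758 to 2460 FPKM in PBM 24 h and 1678 to 2381 FPKM in PBM 4 h, and no listed marker was at 0 in all 8 libraries. Their part in the interferon result was not tested.

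**Figure D2:**
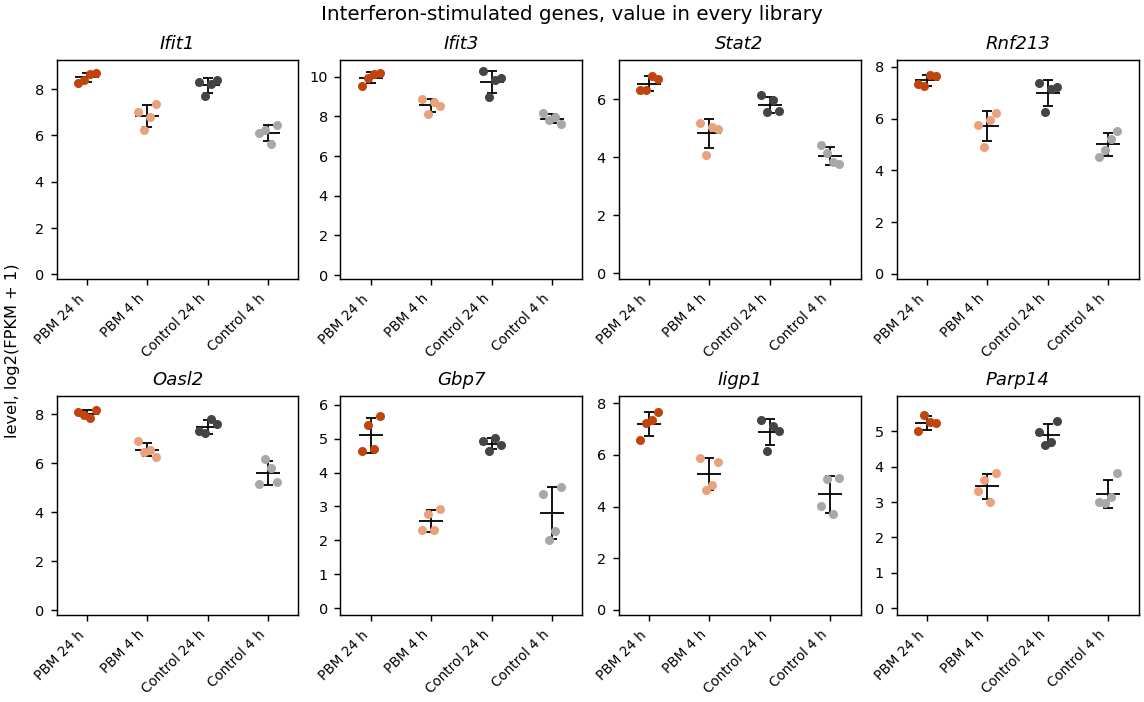
Dots are single libraries of 8 interferon-stimulated genes in PBM 24 h, PBM 4 h, Control 24 h and Control 4 h (4 each), on a log2(FPKM + 1) axis, and the black marks give the mean and SD. In each gene the 24 h libraries lie above the 4 h libraries, in PBM as in Control; Iigp1 at PBM 24 h, for example, has 93.9 to 204 FPKM, against 24.1 to 57.7 FPKM at PBM 4 h.

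Promoters of the changed genes were read for known elements, since many members rose together. The windows run from 250 bases before to 50 after each start and come from RefSeq (GRCm38.p6). The core of the interferon-stimulated response element (ISRE), GAAA, then any 2 bases, then GAAA again, on either strand, stood in the promoter of 18 of the 52 risen genes with an entry (34.6%). It stood in 3 of the 61 fallen genes with an entry (4.92%), in 386 of 9965 tested genes (3.87%), and in 3.44% of all 32851 windows. The risen genes with it, listed after the search, were Ifit1, Ifit3, Ifit3b, Stat2, Ifih1, Eif2ak2, Gbp2, Gbp5, Gbp7, Igtp, Irgm2, Tgtp2, Trim30a, Slfn8, Slfn9, Ifi206, H2-T22 and Fbn1. A gene was counted where any of its windows held the letters, and overlapping matches counted once per gene. Shown are 4 promoters that carry the element, with the matches in capitals, all read on the plus strand (Ifit1 chr19:34640639-34640938, Ifit3 chr19:34583279-34583578, Stat2 chr10:128270248-128270547, Gbp7 chr3:142530086-142530385). A match describes these letters and is not a measured binding site.
Ifit1: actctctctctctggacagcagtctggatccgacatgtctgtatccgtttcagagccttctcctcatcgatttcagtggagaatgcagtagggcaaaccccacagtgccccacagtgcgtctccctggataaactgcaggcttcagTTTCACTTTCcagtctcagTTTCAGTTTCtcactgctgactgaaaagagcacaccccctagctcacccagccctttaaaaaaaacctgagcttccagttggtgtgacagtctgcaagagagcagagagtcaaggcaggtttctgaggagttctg
Ifit3: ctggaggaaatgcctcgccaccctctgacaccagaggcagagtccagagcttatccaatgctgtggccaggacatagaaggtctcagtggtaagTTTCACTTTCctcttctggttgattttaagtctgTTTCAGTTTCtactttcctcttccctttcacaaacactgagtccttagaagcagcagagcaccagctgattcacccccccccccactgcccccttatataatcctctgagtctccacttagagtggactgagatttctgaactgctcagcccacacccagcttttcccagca
Stat2: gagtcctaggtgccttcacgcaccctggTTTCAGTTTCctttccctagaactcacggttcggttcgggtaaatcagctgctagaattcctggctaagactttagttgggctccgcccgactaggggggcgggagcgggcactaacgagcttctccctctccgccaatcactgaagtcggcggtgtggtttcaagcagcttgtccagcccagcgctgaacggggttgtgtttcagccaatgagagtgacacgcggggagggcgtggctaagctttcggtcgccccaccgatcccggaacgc
Gbp7: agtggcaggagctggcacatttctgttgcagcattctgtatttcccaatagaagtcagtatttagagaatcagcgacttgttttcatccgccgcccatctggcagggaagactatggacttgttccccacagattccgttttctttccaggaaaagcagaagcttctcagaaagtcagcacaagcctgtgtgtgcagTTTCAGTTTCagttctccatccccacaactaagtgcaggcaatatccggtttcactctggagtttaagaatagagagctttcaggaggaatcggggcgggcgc
The first 2 hold 2 matches each, and Stat2 and Gbp7 hold 1 each, each as the reverse complement of the searched letters. Ifit1's first match begins 104 bases before the start, and those of Ifit3, Stat2 and Gbp7 begin 156, 222 and 53 bases before it.

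The fall had several parts, of which the early response genes were one. Of 26 immediate early genes, 7 fell and none rose, against 0.633% of all tested genes that fell. The fitted change was below 0 in 25 of the 26, with a median of -0.93. Their summed level was 591 to 771 FPKM in PBM 24 h and 1174 to 1263 FPKM in PBM 4 h. The 7 were Fos, Fosb and Junb of the AP-1 family, the zinc finger factors Egr1 and Klf6, the nuclear receptor Nr4a1 and the growth-factor-induced Ier2.

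Egr1 had 60.7, 55.9, 80.5 and 76.4 FPKM in PBM 24 h and 164, 145, 124 and 150.3 FPKM in PBM 4 h, without overlap (log2 fold change -1.09 ± 0.18, limma adjusted p = 0.00055). Nr4a1 was listed at 0 in 2 PBM 24 h libraries and had 5.92 and 8.45 FPKM in the other 2, against 23.8, 19.3, 18 and 25.3 FPKM in PBM 4 h (log2 fold change -2.98 ± 0.45, adjusted p = 0.000135). Each 24 h library of these genes was below each 4 h library. Junb had 30.9, 28.2, 36.5 and 46.3 FPKM in PBM 24 h and 93.5, 74.1, 94.5 and 84.6 FPKM in PBM 4 h, a log2 change of -1.28 ± 0.20 (limma adjusted p = 0.000135). Fos had 92.9, 38, 55.6 and 96 FPKM in PBM 24 h and 150.0, 127, 123 and 149 FPKM in PBM 4 h (-1.04 ± 0.24, adjusted p = 0.0199). The groups of these genes were apart as well. Ier2, with 4.81 to 41.2 FPKM in PBM 24 h and 53.6 to 82.2 FPKM in PBM 4 h, varied more among the 24 h libraries. Without PBM 24 h replicate 2, 4 of the 26 genes passed, and in a fit on the 8 PBM libraries alone 2 did.

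ERK feedback genes moved the same way. Of 20 tested, 5 fell and none rose, against 0.633% of all tested genes that fell. All 20 had a fitted change below 0 (median -1.06). Their summed level was 260 to 348 FPKM in PBM 24 h and 537 to 670 FPKM in PBM 4 h. Dusp1, a phosphatase that switches off MAP kinases, had 45.7, 42.2, 51.5 and 58.6 FPKM in PBM 24 h and 115, 92.2, 119.5 and 90.9 FPKM in PBM 4 h (log2 fold change -1.06 ± 0.20, limma adjusted p = 0.00198). Dusp4 (-2.12 ± 0.48) and Dusp10 (-2.67 ± 0.61) are phosphatases of the same family. Ereg and Hbegf encode ligands of the EGF receptor. Ereg had 8.47, 3.53, 12.4 and 13.5 FPKM in PBM 24 h and 37.4, 37.6, 30.6 and 35.4 FPKM in PBM 4 h (-1.92 ± 0.26, limma adjusted p = 3.03e-05), and Hbegf changed by -1.33 ± 0.25. In the fit on the 8 PBM libraries alone none of the 20 passed, and without PBM 24 h replicate 1 or replicate 4 there were 3.

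Of 26 growth and neurotrophic factors, 4 fell and none rose (median -0.01), against 0.633% of all tested genes that fell. In the fit on the 8 PBM libraries 2 of the 26 passed. Inhba, the activin A subunit, had 92.3, 148, 107 and 121 FPKM in PBM 24 h and 464, 392, 219 and 377 FPKM in PBM 4 h (log2 fold change -1.59 ± 0.16, limma adjusted p = 1.32e-07). Its groups did not overlap. Fgf2 and Fgf7, 2 fibroblast growth factors, changed by -1.32 ± 0.28 and -0.73 ± 0.19. Fgf7 lost its call in 17 of 20 alternative analyses (limma adjusted p of 0.0359 to 0.172). Of 16 glucocorticoid-responsive genes (median -1.09), Dusp1 and Sgk1 fell and none rose. Sgk1, a kinase that governs ion transport, had 56.1, 38.6, 32.9 and 61.3 FPKM in PBM 24 h and 159, 163, 145 and 244 FPKM in PBM 4 h (-1.91 ± 0.25, adjusted p = 1.23e-05). Its groups did not overlap.

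Among matrix proteases and their inhibitors, 4 of 24 fell and none rose (median -0.09), against 0.633% of all tested genes that fell. Serpinb2, an inhibitor of plasminogen activators (plus strand of chromosome 1, 107511423 to 107535478, GRCm38), had 9.23, 3.7, 0 and 3.54 FPKM in PBM 24 h and 116, 100.3, 83 and 70.2 FPKM in PBM 4 h. Its log2 change of -4.58 ± 0.42 (limma adjusted p = 1.9e-08) was the largest fall among the called genes, from about 3 fragments in all at 24 h, against 70 at 4 h. Timp3, an inhibitor of metalloproteinases, had 352, 377, 341 and 397 FPKM in PBM 24 h and 548, 607, 535 and 581 FPKM in PBM 4 h (-0.63 ± 0.09, adjusted p = 0.000119). The collagenase Mmp13 was above 0 in 1 of the 4 PBM 24 h libraries, at 2.73 FPKM, and had 5.5, 2.64, 8.34 and 5.21 FPKM in PBM 4 h, so its groups overlapped.

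Genes of the contractile cytoskeleton and targets of SRF and YAP, a pair of factors that respond to actin tension, were lower too. Of 28, 7 fell and none rose (median -0.38, 25 below 0), against 0.633% of all tested genes that fell. Their summed level was 7569 to 8334 FPKM in PBM 24 h and 9703 to 10708 FPKM in PBM 4 h. Vcl, vinculin of focal adhesions, had 152, 147, 140.1 and 119 FPKM in PBM 24 h and 286, 309, 324 and 340.1 FPKM in PBM 4 h (log2 fold change -1.17 ± 0.11, limma adjusted p = 1.9e-08). Flnc, an actin cross-linker, had 66.5, 73.4, 78.6 and 91.9 FPKM in PBM 24 h and 189.8, 182, 201 and 185 FPKM in PBM 4 h (-1.29 ± 0.16, adjusted p = 5.06e-06). In both the groups were far apart relative to their spread. Ccn2, connective tissue growth factor and a YAP target, had 458, 556, 515 and 526 FPKM in PBM 24 h and 882, 762, 796 and 743 FPKM in PBM 4 h (-0.63 ± 0.09). The others were Csrp1 (-0.93 ± 0.17), Ccn1 (-0.72 ± 0.14), Amotl2 (-0.78 ± 0.20) and cytoplasmic gamma-actin, Actg1 (-0.46 ± 0.09). In the fit on the 8 PBM libraries 4 passed, and Amotl2 lost its call in 15 of 20 alternative analyses (limma adjusted p of 0.0371 to 0.168). Vcl lies on the opposite strand of Ap3m1 where the 2 overlap, and whether counting used strand is not stated in the sources used here. Other called genes also overlap a gene on the opposite strand, among them Junb (Prdx2), Timp3 (Syn3), Ccn2 (Gm15270), Rnf213 (A930037H05Rik) and Ccnd1 (LTO1).

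The CArG box, the element that SRF binds, was found in 4 of 61 fallen genes with a promoter entry (6.56%), in 0 of 52 risen genes and in 1.59% of the 9965 tested genes. The 4 were Vcl, Actg1, Myo1e and Fermt2. The AP-1 element TGANTCA was in 13.1% of the fallen, 11.5% of the risen and 6.35% of the tested genes, and the cyclic AMP response element TGACGTCA in 3.28% of the fallen, 0 of the risen and 3.53% of the tested genes. The Vcl promoter (RefSeq, GRCm38.p6, chr14:20929148-20929447, plus strand) is shown because Vcl has the smallest adjusted p of the contractile list, with its CArG box in capitals. 
Vcl: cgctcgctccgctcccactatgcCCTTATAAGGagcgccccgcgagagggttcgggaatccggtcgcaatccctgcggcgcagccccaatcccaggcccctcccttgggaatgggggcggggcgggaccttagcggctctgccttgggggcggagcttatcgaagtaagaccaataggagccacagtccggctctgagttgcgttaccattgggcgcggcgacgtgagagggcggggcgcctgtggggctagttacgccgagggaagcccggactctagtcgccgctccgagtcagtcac
The box begins 227 bases before the start of the gene.

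Further falls, named for their small p or their size, had no list in common. Itga5, the fibronectin receptor chain, had 62.2, 61.6, 45.1 and 58.9 FPKM in PBM 24 h and 156, 147, 134 and 141 FPKM in PBM 4 h (log2 fold change -1.34 ± 0.15, limma adjusted p = 1.12e-06). Cd44, the hyaluronan receptor, had 175, 236, 199.7 and 253 FPKM in PBM 24 h and 482, 426, 366 and 492 FPKM in PBM 4 h (-1.03 ± 0.12, adjusted p = 3.7e-06). Spp1, osteopontin, a secreted integrin ligand, was among the most abundant called genes. It had 1575, 1842, 1775 and 2142 FPKM in PBM 24 h and 4098, 3821, 3159.9 and 3616 FPKM in PBM 4 h (-1.0 ± 0.11, limma adjusted p = 7.44e-07). Emp1, a membrane protein counted among reactive astrocyte genes, changed by -1.21 ± 0.12 and Itgb3, an integrin beta chain, by -2.39 ± 0.49. The groups of each of these genes were separate. Of 33 reactive astrocyte genes, 2 rose (Gbp2 and Iigp1, both interferon-inducible) and 3 fell (Cd44, Emp1 and Ptgs2), with a median of -0.05. Of all tested genes, 0.554% rose and 0.633% fell. Lrrc32, which holds latent TGF-beta at the cell surface, had 9.16, 19.1, 0 and 9.14 FPKM in PBM 24 h and 110.3, 37.1, 23.5 and 157 FPKM in PBM 4 h, a wide spread at 4 h (-3.24 ± 0.57, adjusted p = 0.00119).

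**Figure D3:**
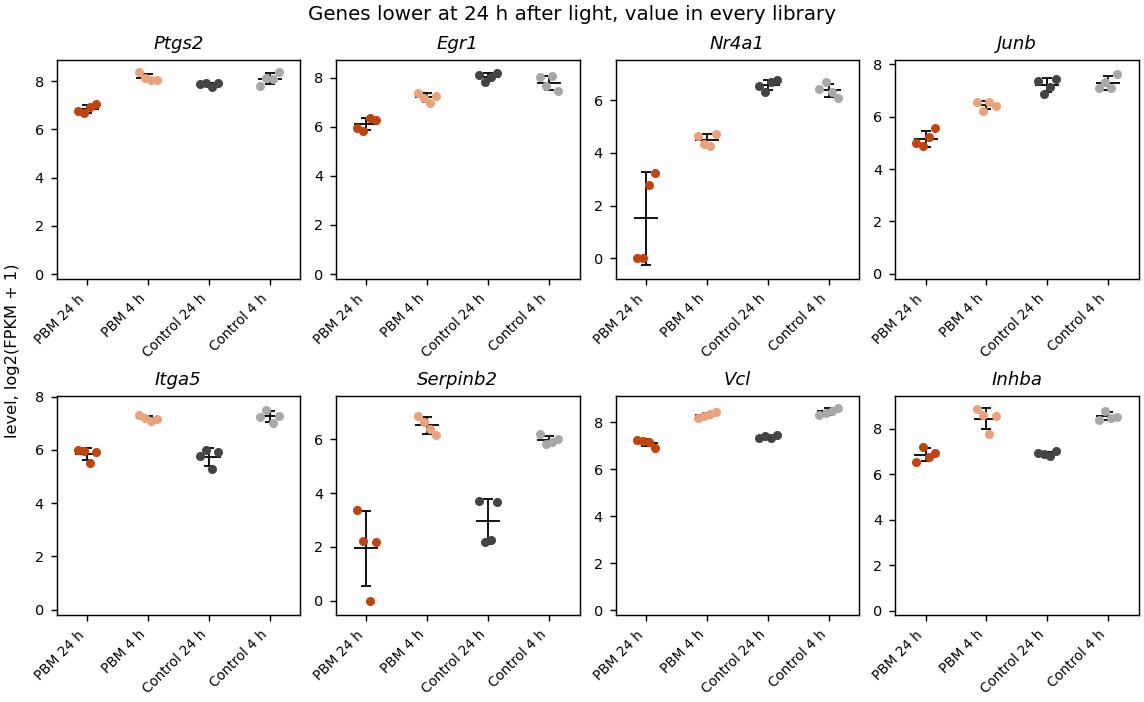
Dots are single libraries of 8 genes that fell in PBM, shown in PBM 24 h, PBM 4 h, Control 24 h and Control 4 h (4 each) on a log2(FPKM + 1) axis, with the mean and SD in black. Ptgs2, Egr1, Nr4a1 and Junb are lower at 24 h in PBM, with Ptgs2 at 99.9 to 132 FPKM, while their Control groups overlap; Itga5, Serpinb2, Vcl and Inhba are lower at 24 h in both.

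Structural matrix went the other way. Of 37 extracellular matrix and collagen genes, 6 rose and none fell (median 0.30, 30 above 0), against 0.554% of all tested genes that rose. The summed level of the list was 12297 to 12984 FPKM in PBM 24 h and 10600 to 10921 FPKM in PBM 4 h. Fn1, fibronectin, had 1952, 1832, 1744 and 2009 FPKM in PBM 24 h and 1294, 1425, 1346 and 1602 FPKM in PBM 4 h (log2 fold change 0.41 ± 0.08, limma adjusted p = 0.00289). Col1a2, a chain of type I collagen, had 992, 897, 1106 and 909 FPKM in PBM 24 h and 652, 700.0, 664 and 625 FPKM in PBM 4 h (0.56 ± 0.10, adjusted p = 0.00124). The groups of both genes did not overlap, though the changes were small. Col1a1 (0.40 ± 0.09), fibrillin-1 (Fbn1, 0.74 ± 0.14), thrombospondin-2 (Thbs2, 0.62 ± 0.13) and nidogen-1 (Nid1, 0.57 ± 0.14) were the others. Only 1 of the 6 passed in the fit on the 8 PBM libraries. The 15 tested fibroblast and meningeal markers summed to 4751 to 5042 FPKM in PBM 24 h and 3962 to 4412 FPKM in PBM 4 h. Their only called members were Col1a1 and Col1a2, which are in both lists, and their part in the matrix result was not tested.

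A pair of cyclins rose. Ccnd1, which drives entry into the cell cycle, had 404, 353, 343 and 358 FPKM in PBM 24 h and 230.1, 207, 207 and 212 FPKM in PBM 4 h (log2 fold change 0.76 ± 0.12, limma adjusted p = 0.00017). Ccnd2 had 517, 456, 470.1 and 427 FPKM in PBM 24 h and 284, 261, 300.2 and 206 FPKM in PBM 4 h (0.84 ± 0.15, adjusted p = 0.00146). Neither gene's groups overlapped, and they were the only called genes of 38 in the cell cycle list (median 0.37, 26 above 0). The mitotic kinase Cdk1 had 23.1, 11.6, 13.3 and 40.2 FPKM in PBM 24 h and 1.68, 1.61, 6.7 and 5.55 FPKM in PBM 4 h. These groups did not overlap, yet the change did not pass (2.25 ± 0.95, limma adjusted p = 0.383). The standard error of Cdk1 came from the fit over all 32 libraries, and it passed in none of 20 alternative analyses. Of low genes outside the list, Cdca5, which protects sister chromatid cohesion, was listed at 0 in all PBM 4 h libraries and at 3.45 to 10.4 FPKM in PBM 24 h. The DNA repair gene Rad54b (2.25 ± 0.53) and the telomere-capping gene Stn1 (3.22 ± 0.73) rose by values that rest on 4 h libraries at or near 0, and Rad54b lost its call in 10 of 20 alternative analyses (limma adjusted p of 0.00368 to 0.29).

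Among 28 antioxidant and NRF2 target genes Prdx1, a peroxiredoxin, was the one that rose (median 0.38, 19 above 0). It had 664, 675, 724 and 660.4 FPKM in PBM 24 h and 373, 366, 401 and 492 FPKM in PBM 4 h (log2 fold change 0.75 ± 0.15, limma adjusted p = 0.00347). Nqo1 and Gclc, the quinone reductase and the glutathione synthesis enzyme, stood at 1.06 ± 0.30 and 1.01 ± 0.28 without passing (adjusted p = 0.0821 and 0.0739). Of 15 lipid efflux and lipoprotein genes, the lipid droplet coat Plin2 (-0.75 ± 0.18) and the cholesterol-esterifying enzyme Soat1 (-1.39 ± 0.35) fell, and neither passed without PBM 24 h replicate 2 or without PBM 4 h replicate 2. In the heat shock and unfolded protein list, Calr rose and Hspa4 fell (-0.82 ± 0.19), of 32 tested, and neither passed in the fit on the 8 PBM libraries.

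Of the lists examined, 17 held a call and 19 held none. Those without a call had 460 entries, 55 of them at an unadjusted limma p under 0.05, against 1296 of all 12631 tested genes. In these lists limma-voom on approximate fragments called 1 member each among the oligodendrocyte and vessel markers. Both marker lists hold Cspg4, so the same gene may have been counted in each. With the filter at 5 FPKM limma also called 1 member of each lower. The lists without a call covered cytokines, complement, homeostatic astrocyte genes, glycolysis, sterol synthesis, metallothioneins, the integrated stress response, the clock, lysosomes, ribosomal proteins and mitochondria (both genomes), and the markers of microglia, oligodendrocytes, neurons, vessels and ependyma. The 26 nuclear cytochrome c oxidase genes had a median change of -0.03 and the 13 mitochondrially encoded genes one of -0.02. mt-Co1, the catalytic oxidase subunit, had 8473, 9330.1, 9720.1 and 8816 FPKM in PBM 24 h and 8138, 8781, 8248 and 8287 FPKM in PBM 4 h. These groups overlapped (log2 fold change 0.12 ± 0.07, limma adjusted p = 0.576). Of the pair named in the study's title, Stat5a was listed at 0 in 3 of 4 libraries of each group. Socs3 had 2.74, 0, 5.74 and 2.73 FPKM in PBM 24 h and 0, 11.1, 20.4 and 16.4 FPKM in PBM 4 h (-1.39 ± 0.61, adjusted p = 0.409). Stat5b (0.08 ± 0.49), Cish (-1.87 ± 0.84), Ccl2 (-0.78 ± 0.39), Cxcl10 (0.92 ± 0.44) and Gfap (0.10 ± 0.29) did not pass either, nor did Il6 (-0.10 ± 0.97), Tnf (-0.32 ± 0.61), Il1b (0.67 ± 0.53) and C3 (0.19 ± 0.50), while Nos2 and Lcn2 were under the 1 FPKM minimum. Ccnd1 was the one riser among 28 JAK-STAT and SOCS genes (median 0.02).

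The same interval in untreated cultures was compared next, to see which changes cultures without light shared. Control 24 h and Control 4 h share no library with the PBM groups. There 172 genes changed (1.36% of those tested), 90 higher (0.713%) and 82 lower (0.649%). Of the 150 genes called in PBM, 67 were also called in Control, 31 higher and 36 lower, which is 44.7% of the PBM calls and 39.0% of the Control calls. None was called in opposite directions. The Control change had the same sign for 64 of the 70 genes that rose and 70 of the 80 that fell. The median change of the risen genes was 1.53 in PBM and 1.03 in Control, and that of the fallen genes -1.19 in PBM and -0.71 in Control. Since these genes were picked by their PBM values, the smaller Control medians describe them and test nothing.

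**Figure D4:**
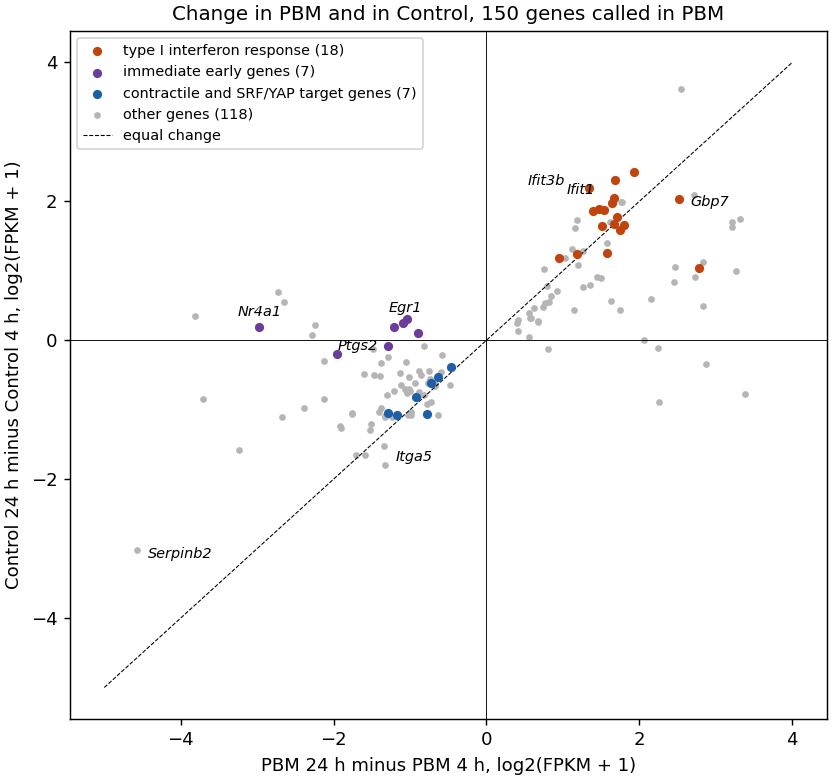
Each point is 1 of the 150 genes called in PBM, with its change in PBM (24 h minus 4 h) on the x axis and its change in Control on the y axis, both in log2(FPKM + 1), and the dashed line marks equal change. Both changes are above 0 for the 18 interferon genes and below 0 for the 7 contractile genes, while the 7 immediate early genes lie left of the line, with Control changes between -0.20 (Ier2) and 0.31 (Fos).

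Interferon genes rose in both. In Control, 24 of the 36 were higher at 24 h (median 1.64), among them 16 of the 18 called in PBM, all but Gbp5 and Rtp4. Ifit1 had 317, 208, 299 and 334 FPKM in Control 24 h and 67.5, 74, 49 and 86.7 FPKM in Control 4 h (log2 fold change 2.05 ± 0.18), and its PBM change minus its Control change was -0.39 ± 0.25 (limma adjusted p = 0.936). A further 8 passed in Control and not in PBM, which does not show that they differed. Isg15, a ubiquitin-like modifier and one of these, had 467, 829.8, 739.9 and 655 FPKM in PBM 24 h and 492, 462, 433 and 436 FPKM in PBM 4 h (0.53 ± 0.17, adjusted p = 0.154), against a change of 0.99 ± 0.17 in Control (adjusted p = 0.000799). Over the 36 genes the difference of the changes had a median of -0.26 and none passed (4 at an unadjusted p under 0.05). Summed over the list, PBM 4 h libraries (2284 to 3045 FPKM) lay above Control 4 h libraries (1525 to 1939 FPKM), while PBM 24 h libraries (4241 to 6096 FPKM) overlapped Control 24 h libraries (3141 to 6000 FPKM).

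The ERK feedback list was also lower at 24 h in Control, where 4 of the 20 fell and none rose (median -0.84), with Hbegf and Ereg called in both. Its summed level was 352 to 509.7 FPKM in Control 24 h and 658 to 737 FPKM in Control 4 h. The PBM change minus the Control change had a median of -0.37 over the list, and none of the 20 passed in limma (0 at an unadjusted p under 0.05) or in limma-voom.

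All 7 contractile genes that fell in PBM also fell in Control, where 9 of the 28 did (median -0.40). Vcl had 159.7, 169.7, 158 and 174 FPKM in Control 24 h and 314, 338, 359 and 391 FPKM in Control 4 h, and the difference of its changes was -0.10 ± 0.15 (limma adjusted p = 0.968). Itga5 changed by -1.53 ± 0.15 in Control and Inhba by -1.66 ± 0.16, both called, with differences of 0.19 ± 0.22 and 0.06 ± 0.23. Sgk1 (-1.26 ± 0.25), Cd44 (-0.76 ± 0.12), Spp1 (-0.73 ± 0.11), Emp1 (-0.73 ± 0.12), Fgf2 and Fgf7 were also called lower in Control. Timp3 changed by -1.08 ± 0.09 in Control and by -0.63 ± 0.09 in PBM. Its difference of 0.45 ± 0.13 did not pass (limma adjusted p = 0.546). Serpinb2, with 12.1, 3.55, 3.81 and 11.7 FPKM in Control 24 h and 72, 55.4, 58.8 and 63.8 FPKM in Control 4 h, fell in Control by 3.03 on the log2 scale, and the difference of -1.55 ± 0.59 did not pass (adjusted p = 0.773). Of the matrix list, Col1a2 rose in Control as well (0.40 ± 0.10), the only one of the 37 to pass there. The list had a median change of 0.16 in Control. None of the 37 passed the test of the difference (median 0.15, 1 at an unadjusted limma p under 0.05). The cyclins Ccnd1 (0.54 ± 0.12, limma adjusted p = 0.0115) and Ccnd2 were called higher in Control too. Of the 28 antioxidant and NRF2 target genes, 4 rose in Control and none fell (median 0.34). The 4 were Prdx1, Nqo1, Gclc and Slc7a11, and no member of that list passed the test of the difference.

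One gene changed differently in PBM and Control. Ptgs2, cyclooxygenase-2, which makes prostaglandin precursors (ENSMUSG00000032487, GRCm38, chromosome 1, 150100031 to 150108227, plus strand), had 108, 99.9, 120.1 and 132 FPKM in PBM 24 h and 329, 277, 260.3 and 264 FPKM in PBM 4 h, a log2 change of -1.29 ± 0.11 (limma adjusted p = 4.69e-09). Control 24 h had 235, 239, 214 and 239 FPKM and Control 4 h 223, 278, 273 and 332 FPKM, and these groups overlapped (-0.24 ± 0.11, adjusted p = 0.439). The difference of the changes was -1.05 ± 0.15 on the log2 scale (limma adjusted p = 0.00194), the only one of 12631 to pass (0.00792%, with 661 genes at an unadjusted p under 0.05). The difference no longer passed with the 16 Control and PBM libraries alone (adjusted p = 0.257) or with limma-voom on approximate fragments (adjusted p = 0.0922).

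Ptgs2 was also the only called gene of 24 NF-kappaB targets in PBM (median -0.34, 17 below 0). Immediate early genes had differences in the same direction. None of the 26 passed the test of the difference, but 13 were at an unadjusted p under 0.05 and 23 had a difference below 0 (median -0.90, against -0.01 over all tested genes, of which 6451 of 12631 were below 0). In Control the list had a median change of -0.07, with 1 member called, Fosl1, which fell (-3.15 ± 0.62). Egr1 had 278, 225, 257 and 291 FPKM in Control 24 h and 257, 199, 266 and 173 FPKM in Control 4 h, and the difference was -1.34 ± 0.26 (limma adjusted p = 0.0871). Nr4a1 had 91.8, 79, 103 and 108 FPKM in Control 24 h and 84.4, 103, 78.9 and 67.6 FPKM in Control 4 h, a difference of -3.18 ± 0.64 (adjusted p = 0.0903). The Control groups of both genes overlapped. Summed over the list, the 4 groups held 591 to 771 FPKM (PBM 24 h), 1174 to 1263 FPKM (PBM 4 h), 1734 to 2024 FPKM (Control 24 h) and 1651 to 1993 FPKM (Control 4 h). Each PBM 24 h library was below each Control library of either time in 13 of the 26 genes (0.42% of all tested), and each PBM 4 h library was in 7 (0.293% of all tested). Light and any handling that only the treated cultures received cannot be told apart here.

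**Figure D5:**
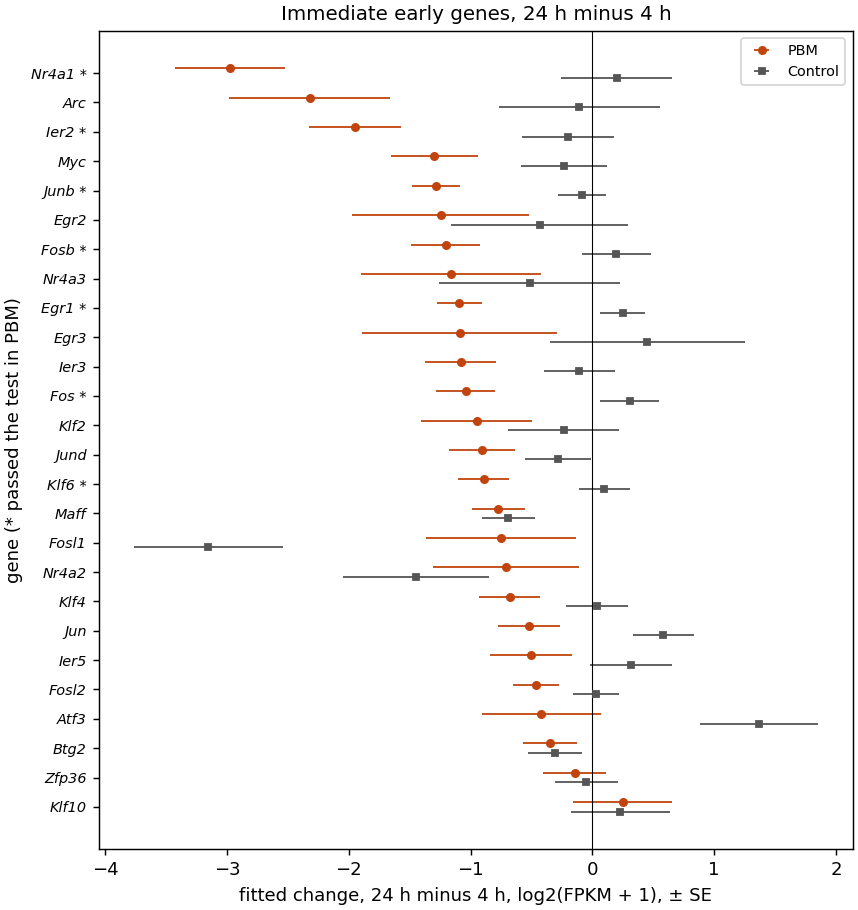
The fitted change, 24 h minus 4 h in log2(FPKM + 1) with its standard error, is drawn for the 26 immediate early genes in PBM (orange circles) and in Control (grey squares), with asterisks at the 7 that passed in PBM. The PBM points of 25 genes lie below 0 around a median of -0.93, and the Control points scatter around a median of -0.07.

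Other differences with small p did not pass. Rgs16, a brake on G protein signalling, had 35.9, 62.4, 28.2 and 56.7 FPKM in PBM 24 h and 116, 103, 146 and 134 FPKM in PBM 4 h, and its difference was -1.36 ± 0.28 (limma adjusted p = 0.0903). Mt1, a metallothionein that binds zinc, had 12.7, 48.5, 66.7 and 50.8 FPKM in PBM 24 h and 53.6, 90.0, 135 and 76 FPKM in PBM 4 h, groups that overlapped (-1.11 ± 0.38, adjusted p = 0.204). In Control, Mt1 rose to 96.7, 25.5, 54.6 and 55.7 FPKM at 24 h, against 27.2, 21.4, 13.2 and 12.7 FPKM at 4 h (1.51 ± 0.38, adjusted p = 0.0354), and the difference was -2.63 ± 0.54 (adjusted p = 0.0903). On the other side stood F830016B08Rik, an interferon-inducible GTPase by its family, with 38.2, 35.4, 40.0 and 65.6 FPKM in PBM 24 h and 13.4, 8.56, 6.76 and 8.44 FPKM in PBM 4 h (2.15 ± 0.27). Its difference was 1.55 ± 0.38 (adjusted p = 0.314). Rad54b (3.15 ± 0.74) and Cfap300, a cilium assembly gene (5.20 ± 1.15), are low genes with libraries at 0.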

How the data were processed

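RNA was measured by sequencing in 32 libraries of primary mouse astrocytes; 16 are used here in comparisons and all 32 set the spread. Per the labels' protocols, oligo-dT primed, template-switched cDNA was amplified by PCR and sequenced, with no molecular barcodes named. Tools named in the submitters' processing notes are HISAT2, RSEM, StringTie 1.3.1, Bowtie2 2.2.8 and fastp 0.18.0, with build mm10. The authors deposited FPKM values with 2 decimals. No counts were used, so a planned count test did not apply.

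Names and coordinates came from GENCODE M21 (GRCm38), which matched 21806 of 21899 gene IDs. Genes averaging at least 1 FPKM in either PBM group were tested with limma 3.58.1 (R 4.3.3) on log2(FPKM + 1), as means of all 8 groups with intensity trend and robust variances. Adjustment was by Benjamini-Hochberg over the tested genes. Contrasts were PBM 24 h minus 4 h, Control 24 h minus 4 h, and their difference. The method was checked on simulated data with changes placed only in the more abundant genes, so the check did not cover changes in low genes. Depth was inferred from single-transcript genes, where 92.3% of 23614 low values were whole within 0.05 of a fragment; intervals from it would cover counting error only.

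Members and the 36 gene lists (985 of 990 entries matched) were chosen with earlier results of these data known. Genes named were 13 study genes, the 15 largest changes a direction (called, separated, mean of at least 5 FPKM in the higher group, no predicted names), the 10 with the smallest p, up to 4 members a list with the smallest p, and up to 8 differences a direction that passed, or else 3; other called members of the lists described, Rgs16, Isg15, Fosl1, Arc and Tardbp were chosen after their values were seen. Some genes that the rule names are not reported here. Alternatives were pseudocounts of 0.1 and 5, filters of none and 5 FPKM, quantile and median-of-ratios scaling, fewer libraries in the fit, replicate block, array quality weights, and leaving out each library; limma-voom on approximate fragments and leaving out the 6 libraries listed last in the table were added after seeing the data.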

Additional observations from a re-analysis of the deposited data

Results flagged for a closer look

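Ptgs2 is set apart because its change over time differed between PBM and Control, by -1.05 ± 0.15 on the log2 scale (limma adjusted p = 0.00194). That p rests on the fit over all 32 libraries. With the 16 Control and PBM libraries alone the difference did not pass (limma adjusted p = 0.257), nor did it with limma-voom on approximate fragments (adjusted p = 0.0922).

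Among 112 named genes, 217 sets of 4 libraries (PBM 24 h or PBM 4 h) held differing values. Of these, 22 had a library far from the other 3 by Dixon's test at 95%. The test's rate of about 1 in 20 by chance holds for continuous normal values. A set with 3 libraries at 0 and 1 above 0 is always flagged, so the 22 cannot be set against that rate. The 7 gene sets with equal values could not be tested, and none of 6 sets of depth, genes above 0 or mitochondrial share was flagged. In 9 of the 22 flagged sets a single library was above 0 while the other 3 were listed at 0. At PBM 24 h these were Mmp13 (2.73 FPKM), Stat5a (1.94 FPKM), Il1b (5.38 FPKM) and Arc (2.4 FPKM), and at PBM 4 h Gbp5 (2.31 FPKM), Gbp10 (4.92 FPKM), Rad54b (2.9 FPKM), Stn1 (3.69 FPKM) and Stat5a (5.87 FPKM).

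High libraries at PBM 24 h were those of F830016B08Rik (65.6 FPKM, others 35.4 to 40.0), Fgf2 (19.9 FPKM, others 12.9 to 13.6), Noc2l (15.1 FPKM, others 7.52 to 7.89), Cfap300 (13.2 FPKM, others 4.38 to 4.6) and Fosl1 (39.7 FPKM, others 9.54 to 12.5), and the low one was that of Nat14 (4.34 FPKM, others 9.86 to 10.35). High libraries at PBM 4 h were those of Ifi47 (23.2 FPKM, others 13.1 to 14.4), Fosb (55.1 FPKM, others 29.6 to 33.1), Col1a1 (612 FPKM, others 508 to 523), Nfkbia (46.6 FPKM, others 13.2 to 17.9) and Cish (33.0 FPKM, others 2.71 to 7.61). Ccnb1, a mitotic cyclin, was listed at 0 in 1 PBM 4 h library and had 3.25 to 3.47 FPKM in the other 3, as was Tnf (others 4.76 to 5.08 FPKM).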

How the results depend on the processing

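Calls depended most on which libraries set the spread: 70 higher and 80 lower over all 32, 38 and 52 with the 16 Control and PBM libraries, and 19 and 25 with the 8 PBM libraries. Leaving out 1 library gave 47 to 72 higher and 61 to 83 lower, and leaving out the 6 last-listed gave 49 and 60. The single difference between PBM and Control became 0 with the 16 libraries and 0 with limma-voom, and 1 to 4 on leaving out 1 library (4 without PBM 24 h replicate 3 or 4, 2 without PBM 24 h replicate 2 or Control 24 h replicate 2). Control calls (172) became 83 with the 16 libraries and 108 to 166 on leaving out 1 library, 108 being without Control 24 h replicate 3. No replicate pairing was seen: residuals of same-numbered PBM libraries correlated at -0.0099 to 0.0112 (4 pairs), and with the replicate block 71 were higher and 81 lower, with 1 difference. All other settings kept these counts within 1.5 times.

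Of 2260 single-gene values under an alternative, 1935 kept direction and side of the threshold, 292 lost a call, 21 gained one and 12 changed sign, none of them of a called gene: on leaving out 1 library Stat5b ran between -0.0512 and 0.27, Gfap between -0.0811 and 0.27, Il6 between -0.91 and 0.81, Tnf between -1.08 and 0.21 and C3 between -0.0726 and 0.40. Il6 was at 0.60 with a pseudocount of 0.1, and Tnf at 0.21 without the 6 last-listed libraries. In all, 54 genes lost a call somewhere; the cause was not tested. In PBM 4 h, 1 fragment in a 1 kb transcript was worth 6.96 to 7.43 FPKM, so values near that level rest on few fragments.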

Other observations

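A called gene outside every list, named after its values were seen, was Tardbp, which encodes the RNA-binding protein TDP-43. It had 101, 104, 139.8 and 117 FPKM in PBM 24 h and 235, 270.3, 297 and 152 FPKM in PBM 4 h (log2 fold change -1.01 ± 0.25, limma adjusted p = 0.0319). Its 24 h libraries lay below the 4 h libraries. In Control the change was -0.52 ± 0.25, which did not pass (adjusted p = 0.492).

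Among the largest falls were genes listed at 0 in all 4 PBM 24 h libraries. Pex3, needed to form peroxisomes, had 28.9, 10.8, 14 and 6.49 FPKM in PBM 4 h (limma adjusted p = 0.003), and Hacl1, a peroxisomal lyase that shortens fatty acids, 5.56, 19.4, 15.3 and 12.3 FPKM (adjusted p = 0.0377), a call lost in 11 of 20 alternative analyses. No fold is given against a group listed at 0. In Control 24 h Pex3 was not at 0, with 5.49, 7.13, 17.6 and 30.0 FPKM, against 30.4, 22.5, 0 and 14.7 FPKM in Control 4 h. S100a7a was likewise at 0 in PBM 24 h and had 5.75, 5.51, 5.81 and 5.44 FPKM in PBM 4 h. Among the genes called higher, Nat14 was at 0 in all PBM 4 h libraries, and Rab3il1, an activator of Rab GTPases, stood at 17.4, 11, 7.06 and 3.45 FPKM in PBM 24 h and 0, 1.37, 0 and 2.7 FPKM in PBM 4 h. Neither call was stable: Nat14 lost it in 19 of 20 alternative analyses (limma adjusted p of 0.0454 to 0.118) and Rab3il1 in 12 of 20 (0.0187 to 0.281). Among the largest falls were also Trib1, a pseudokinase (-2.25 ± 0.45), Noc2l (-1.76 ± 0.39) and Ammecr1 (-2.28 ± 0.53). Trib1 stood at 21, 27.4, 12.1 and 14.1 FPKM in Control 24 h and 13.8, 16.8, 14.1 and 16.1 FPKM in Control 4 h, with overlap, and the difference of its changes was -2.47 ± 0.64 (adjusted p = 0.407).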
